A study of Homo sapiens and Homo sapiens
Mus with 12 samples.

Results

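The 84 genes described here encode the proteins of the cytosolic ribosome. They were chosen by name, as protein-coding genes whose symbols are those of ribosomal proteins of the large subunit (RPL, RPLP) or the small subunit (RPS, RPSA), leaving out the RPS6 kinases and chromosome Y. All 84, of 21466 genes with values, were in the count table of the cultured cells, 52 for the large and 32 for the small subunit. The human count table of the tumors listed 82 of them among 26813 genes, without RPL10L and RPL39L.

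The study silenced CDH11, a cell adhesion molecule, in UM-UC-3, a cell line of advanced bladder cancer. The cells carried a GIPZ lentivirus with GFP and either a non-silencing hairpin (shCtrl) or one of a pair of hairpins against CDH11 (sh#1 and sh#2), and GFP-positive cells were sorted, so that each group was 1 infected line and all groups shared the vector and GFP. RNA was sequenced from 3 cultures of each line and from 5 xenograft tumors of each line, taken 4 weeks after injection in Matrigel under the skin of BALB/cAJcl-nu/nu male mice, 5 weeks old at injection. The comparisons below ask how the mRNAs of the ribosome differed between shCtrl and CDH11 knockdown (KD) lines, in culture and in tumors. Nothing in the labels says that the cultured samples came from separate experiments, and the p-values then measure the spread between these samples only.

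Counts on genes totalled 2273182 to 2777019 per cultured library and 414849 to 1248977 human counts per tumor. CDH11 was near the limit of detection in culture, with 2 to 4 counts in shCtrl, 0 to 1 in sh#1 and 0 to 2 in sh#2. In tumors it had 5 to 32 counts (median 15) in shCtrl, 1 to 9 (median 3) in sh#1 and 2 to 14 (median 7) in sh#2, so the groups overlapped. Tumor 1 of sh#1 stood apart, with the lowest depth and 0.429 mouse counts per human count against 0.115 to 0.232 in the other tumors. The tumors of each group were sequenced in a library mix of their own, so mix and group cannot be told apart. In bulk RNA, fewer cells of a type and less RNA per cell cannot be told apart either.

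Ribosomal protein (RP) mRNAs are among the most abundant mRNAs of growing cells. Most begin at a C followed by an unbroken run of pyrimidines, the 5′ terminal oligopyrimidine (TOP) motif, through which LARP1 and the mTOR pathway control their translation and stability. The subunits are assembled in the nucleolus with rRNA made by RNA polymerase I, and the mRNAs of several translation factors share the TOP motif.

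The start sites of the genes on which the results turn are shown first, because a TOP motif is read at the first base of the mRNA. Each line gives 30 bases of the sense strand from RefSeq (GRCh38.p14), of which the last 15 begin at an annotated start, and capitals mark the run of pyrimidines from the first base of the RNA. The first 5 genes had the largest rises in cultured KD cells, RPL36A fell in tumors, RPLP0 was the reference gene of the study's RT-qPCR, and RPS27L and RPL7L1 did not rise.
RPL22L1, chr3:170870181-170870210, minus strand: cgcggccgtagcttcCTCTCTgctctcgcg
RPL26, chr17:8383179-8383208, minus strand: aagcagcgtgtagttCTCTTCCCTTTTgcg
RPL34, chr4:108620561-108620590, plus strand, 1 of 2 annotated starts: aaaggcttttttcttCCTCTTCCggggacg
RPS12, chr6:132814554-132814583, plus strand: gcgtgcggatgaggcCTCTTTCCCTgccgc
RPL31, chr2:101002274-101002303, plus strand: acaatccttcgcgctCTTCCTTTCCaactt
RPL36A, chrX:101390996-101391025, plus strand: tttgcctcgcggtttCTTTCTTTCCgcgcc
RPLP0, chr12:120201097-120201126, minus strand: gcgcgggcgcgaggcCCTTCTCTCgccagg
RPS27L, chr15:63157463-63157492, minus strand: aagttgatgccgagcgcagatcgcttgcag
RPL7L1, chr6:42879601-42879630, plus strand: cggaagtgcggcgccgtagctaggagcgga

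The table of promoters held 67 of the 84 genes, with 83 starts. A C followed by at least 4 pyrimidines stood at an annotated start of 47 of the 67 (70.1%), against 941 of 15775 other protein-coding genes (5.97%). The letters CTTTC lay within 10 bases of a start, on the sense strand, in 41.8% of the 67 genes and 4.22% of the others. The longer CTCTTTCC, which holds CTTTC within it, was found there in 11.9% and 0.216%. These are matches of letters in annotated windows and no measured start sites.

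In cultured cells the RP mRNAs were higher in both KD lines. They took 22.6%, 23.2% and 22.8% of all counts of the shCtrl libraries, 25.2%, 26.2% and 26.1% with sh#1 and 28.0%, 28.0% and 27.9% with sh#2. The means were 22.9% ± 0.302 (SD, n = 3), 25.9% ± 0.564 (SD, n = 3) and 27.9% ± 0.0628 (SD, n = 3), and no library of one group overlapped another. In tumors the groups overlapped, at 14.5% to 16.6% (mean 15.8% ± 0.924, SD, n = 5) in shCtrl, 14.4% to 17.6% (15.7% ± 1.33, SD, n = 5) in sh#1 and 12.3% to 14.8% (13.9% ± 0.983, SD, n = 5) in sh#2. The cultured and tumor tables came from separate processing, so values of cells and tumors are only set side by side, with no test between them. Mouse Rp genes of the host took 4.77% ± 0.821 of the mouse counts in shCtrl tumors, 3.90% ± 1.43 in sh#1 and 3.83% ± 0.460 in sh#2 (SD, n = 5 each), again with overlap.

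**Figure D1:**
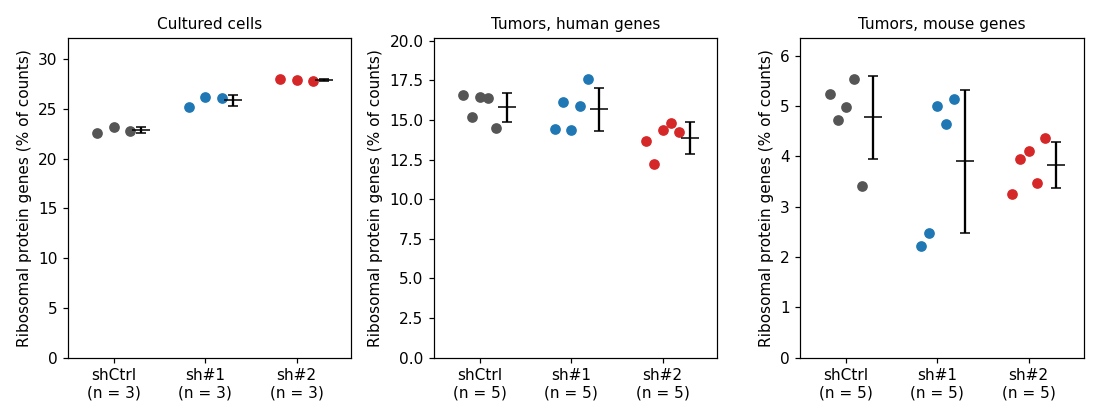
Share of counts on ribosomal protein genes, in percent of the counts of each table, for cultured cells, human genes of the tumors and mouse genes of the tumors. Each point is 1 library, and bars give the mean and SD of the 3 or 5 libraries of a group. The cultured groups step up from 22.9% to 27.9% without overlap, and the tumor groups overlap.

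Gene by gene, 81 of the 84 passed the filter on low counts in cultured cells and were tested with edgeR. RPL10L, RPL39L and RPL3L, copies used in few tissues, were left out by the filter, with 0, at most 2 and at most 3 counts per library. In KD against shCtrl, 61 of the 81 rose and 1 fell (q under 0.05), where 9.12% of all 9859 genes tested rose and 8.32% fell. The median log2 fold change of the 81 was 0.40, a fold of 1.32, against 0.00 for all genes tested, and 79 of the 81 values were above 0. All 6 KD libraries lay above all 3 shCtrl libraries for 67 of the 81, as they did for 11.4% of all genes. The count rests on the control libraries, since without shCtrl replicate 1 it was 31 rises and without shCtrl replicate 3 it was 36, all of them among the 61.

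Each hairpin showed the rise, in different size. With sh#1, 61 rose and 1 fell (background 11.8% and 10.6%), with a median of 0.27. With sh#2, 78 rose and 2 fell (background 19.5% and 18.8%), with a median of 0.53. Between the hairpins, 75 of the 81 were lower and 1 was higher in sh#1 than in sh#2 (background 13.5% and 11.2%), with a median difference of −0.29. For 66 of the 81 genes every sh#1 library lay above shCtrl and every sh#2 library above sh#1, against 4.62% of all genes. Scaling by library totals without TMM factors moved the median of all genes to −0.16 in KD, −0.08 in sh#1, −0.26 in sh#2 and 0.20 in sh#1 against sh#2. Relative to that shift the RP medians were 0.39, 0.27, 0.54 and −0.29, and 52, 51 and 72 genes still rose in KD, sh#1 and sh#2. That scaling left 27 genes lower and 4 higher in sh#1 than in sh#2, fewer than the 75 lower with TMM factors. Across all genes it changed the share of rises among the calls from 52.3% to 27.3% in KD.

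**Figure D2:**
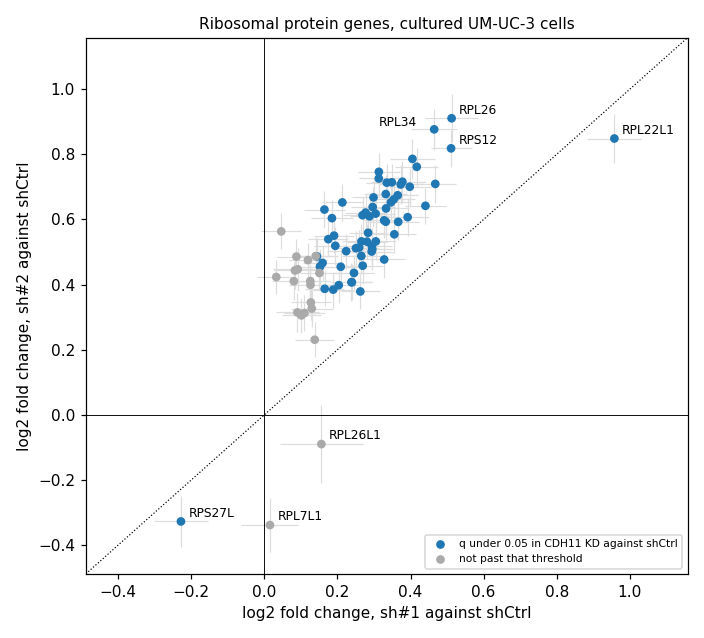
Log2 fold change of the 81 tested ribosomal protein genes in cultured cells, for sh#1 (horizontal) and sh#2 (vertical) against the same 3 shCtrl libraries, with standard errors, the dotted line marking equal values. Blue points passed q under 0.05 in KD against shCtrl. Most genes lie above the line and right of 0, RPL22L1 lies below the line, and RPS27L lies below 0 on both axes.

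The largest rise was that of RPL22L1, a paralog of RPL22 that can take its place in the large subunit. Its normalized level was 125, 135 and 133 CPM (counts scaled to the normalized library size) in shCtrl, 240, 255 and 267 in sh#1 and 237, 244 and 227 in sh#2. All KD libraries were above all shCtrl libraries, and the hairpins overlapped. The log2 fold change was 0.90 ± 0.09 (SE, q = 1.38e-06) in KD, 0.96 in sh#1 and 0.85 in sh#2, and the difference between the hairpins was 0.11 ± 0.07 (SE, q = 0.275).

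RPL26, which lines the end of the exit tunnel and is known to bind p53 mRNA, followed at 0.72 ± 0.13 (SE, q = 0.00115), from 3166, 3411 and 3216 CPM in shCtrl to 3977, 4659 and 5326 in sh#1 and 6176, 5921 and 6308 in sh#2. RPL34 of the large subunit (0.68 ± 0.13, q = 0.0017) and RPS12 of the small subunit (0.67 ± 0.11, q = 0.000456) came next. RPS12 went from 4847 to 4991 CPM in shCtrl to 6309 to 7614 in sh#1 and 8514 to 8905 in sh#2. The other large rises were those of RPL31 (0.61), RPS24 (0.60), RPL21 (0.59) and RPL13 (0.56). For RPL26, RPL34, RPS12 and RPL31 the sh#1 libraries lay between shCtrl and sh#2 with no overlap.

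Both subunits took part, against a background of 9.12% of all tested genes that rose and 8.32% that fell. Of the small subunit, 25 of 32 genes rose and RPS27L fell (median 0.38), and of the large subunit 36 of 49 rose (median 0.41). The ratio of large to small subunit counts was 1.27 ± 0.00468 in shCtrl, 1.25 ± 0.00793 in sh#1 and 1.25 ± 0.0111 in sh#2 (SD, n = 3 each). Of the genes of the peptide exit tunnel and its rim, where growing proteins leave, all 8 rose (RPL4, RPL17, RPL19, RPL23A, RPL26, RPL31, RPL35 and RPL39, 0.32 to 0.72). The 5S particle proteins RPL5 (0.47, q = 0.00408) and RPL11 (0.53, q = 0.00526), which bind MDM2 when assembly is disturbed, rose as well. Of the stalk that recruits elongation factors, RPLP2 rose (0.41, q = 0.0084), while RPLP0 (0.28, q = 0.0638) and RPLP1 (0.24, q = 0.159) did not pass the threshold. DESeq2 called 2 of the 3 stalk genes higher in KD. Around the mRNA channel, RPS3, RPS23 and RPS26 rose and RPS2, RPS14 and RPS28 did not pass (0.32, 0.21 and 0.27). Of 18 genes mutated in Diamond-Blackfan anemia, an inherited failure of red cell production, 16 rose, with a median of 0.46, among them RPS19 at 0.46 (q = 0.00681).

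A total of 19 tested genes were not called in KD. Of these, 17 had values from 0.18 to 0.33, and the others were the paralogs RPL26L1 (0.04 ± 0.12, q = 0.841) and RPL7L1 (−0.15 ± 0.11, q = 0.396). RPL7L1, a nucleolar relative of RPL7 that acts in ribosome assembly, was at 183, 182 and 163 CPM in shCtrl, 171, 197 and 168 in sh#1 and 134, 144 and 141 in sh#2. It fell with sh#2 (−0.34 ± 0.08, q = 0.000759) and had a value of 0.02 ± 0.08 (q = 0.918) with sh#1, and the difference between the hairpins was 0.35 ± 0.08 (SE, q = 0.000796). RPS27L, a paralog of RPS27 and a p53 target gene, was at 229, 240 and 220 CPM in shCtrl, 186, 215 and 188 in sh#1 and 202, 174 and 173 in sh#2. Every KD library was below every shCtrl library, and the log2 fold change was −0.28 ± 0.09 (SE, q = 0.0398). The call of RPS27L in KD was lost in 9 of 16 other settings, with q up to 0.166 without shCtrl replicate 2, and it fell with each hairpin in the 3-group fit (q = 0.0204 and 0.000504).

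Ratios of paralogs within a library need no scaling. RPL22L1 had 9.53% to 11.4% of the counts of RPL22 in shCtrl, 16.6% to 17.2% in sh#1 and 12.6% to 14.5% in sh#2. RPS27L had 15.3% to 17.4% of the counts of RPS27 in shCtrl, 10.2% to 11.8% in sh#1 and 7.74% to 9.08% in sh#2. RPL26L1 had 1.65% to 1.85% of the counts of RPL26, then 1.24% to 1.44% and 0.839% to 0.899%. Each of these pairs had no overlap between the groups. A two-sided exact permutation test of KD against shCtrl gave p = 0.0238, the smallest that 3 against 6 libraries can give. Adjusted over the 10 ratios tested it was 0.0595. RPL22L1, RPL26, RPS27 and RPS27L had already separated KD from shCtrl in these same libraries, so this p gives no separate support. RPL26L1 itself was not called (0.04, q = 0.841), while RPL26 rose (0.72). RPL7L1 against RPL7 was 5.74% to 6.56% in shCtrl, 5.28% to 6.34% in sh#1 and 3.36% to 3.66% in sh#2 (exact p = 0.119, adjusted 0.198). In tumors the smallest adjusted p of these 4 ratios was 0.591, with overlapping groups such as 88.8% to 166% in shCtrl, 92.2% to 157% in sh#1 and 80.8% to 131% in sh#2 for RPL22L1 against RPL22.

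**Figure D3:**
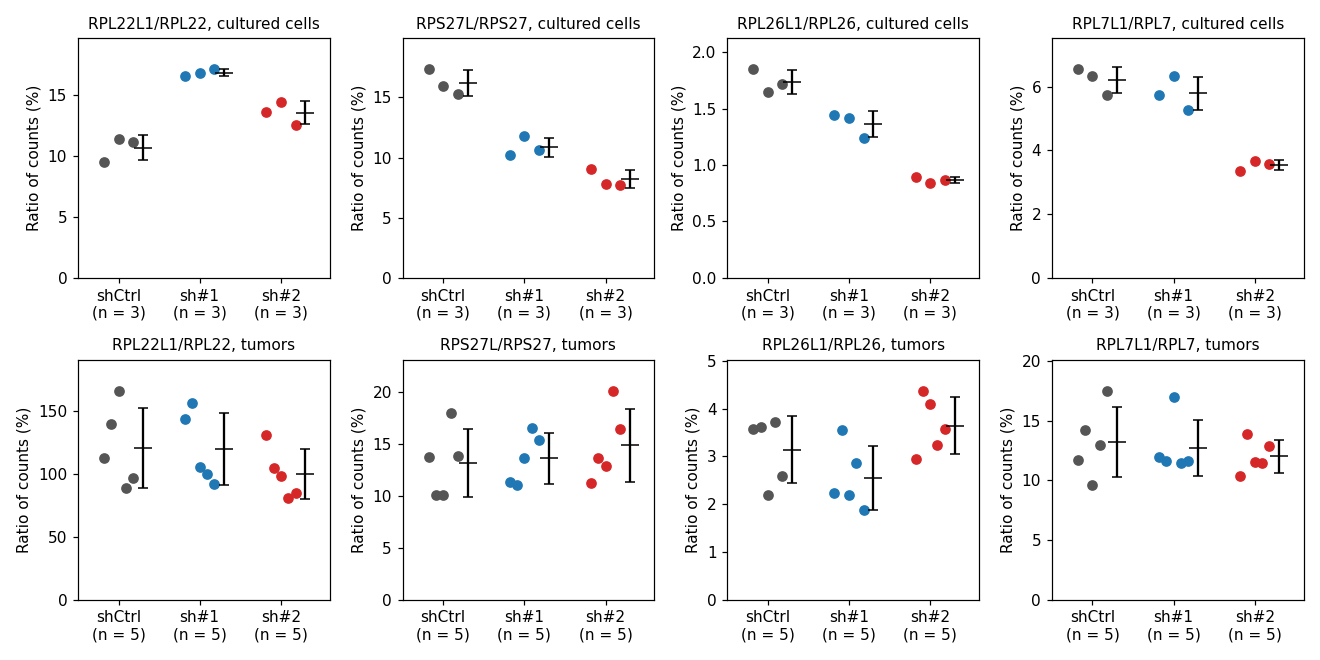
Counts of 4 paralogs in percent of the counts of the gene each resembles, in each library of cultured cells (top) and tumors (bottom). Points are libraries, and bars give the mean and SD. In culture the RPL22L1 ratio is higher and the RPS27L and RPL26L1 ratios are lower in all 6 KD libraries, and in tumors the groups overlap.

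RPLP0, the stalk protein whose mRNA the study used to normalize its RT-qPCR, was at 3240, 3313 and 3329 CPM in shCtrl, 3548, 3754 and 3481 in sh#1 and 4351, 4435 and 4351 in sh#2. No group overlapped another. Its log2 fold change was 0.13 ± 0.05 (q = 0.0809) with sh#1, 0.41 ± 0.05 (q = 5.43e-09) with sh#2 and 0.28 ± 0.10 (q = 0.0638) in KD. In culture RPLP0 was called higher in KD under 4 alternatives (0.28 to 0.31) and was not called under 12. In tumors the log2 fold change of RPLP0 was −0.18 ± 0.09 (q = 0.401), from 2571 to 3665 CPM in shCtrl and 2523 to 3430 in the KD tumors. The primers were placed on the canonical transcript, where they enclose 97 nt, on chromosome 12, minus strand, the forward primer in exon 5 and the reverse primer across the junction of exons 5 and 6.
RPLP0 forward, chr12:120198929-120198947: agcccagaacactggtctc
RPLP0 reverse, chr12:120198737-120198871: actcaggatttcaatggtgcc

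In tumors no such rise was called. The filter kept 79 of the 82 genes. RPL17 was among those removed, with 1 to 7 counts per tumor, where each cultured library had 4045 to 6326. In KD against shCtrl, 0 of the 79 rose and 1 fell (q under 0.1, the threshold of the study for tumors), where 0.697% of all 9184 genes tested rose and 0.817% fell. At an unadjusted p under 0.05, edgeR had 4 RP genes higher and 12 lower. DESeq2 called 1 RP gene higher and 2 lower, against 75 higher and 81 lower over all genes. The share of all genes at an unadjusted p under 0.05 is not given here for any comparison. The median log2 fold change was −0.07, against 0.01 for all genes, with 25 of the 79 values above 0.

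The hairpins differed in tumors too, with the opposite sign. With sh#1, 1 gene rose and 1 fell (background 0.773% and 0.708%), with a median of 0.03. At an unadjusted p under 0.05, edgeR had 16 higher and 5 lower with sh#1. DESeq2 called 3 higher and 1 lower with sh#1, against 71 higher and 57 lower over all genes. With sh#2, 0 rose and 12 fell (background 1.36% and 1.32%), with a median of −0.18. At an unadjusted p under 0.05, edgeR had 1 higher and 33 lower with sh#2. DESeq2 called 0 higher and 19 lower with sh#2, against 97 higher and 127 lower over all genes. The 12 that fell in edgeR were RPL36A, RPL27A, RPLP2, RPS3, RPS13, RPS15A, RPS20, RPS21, RPS25, RPS27, RPS28 and RPS29. Of these, 9 were of the small subunit, and all were named after their values were seen. Between the hairpins, 12 genes were higher and 0 were lower in sh#1 than in sh#2 (background 0.642% and 0.544%), with a median difference of 0.20. At an unadjusted p under 0.05, edgeR had 38 higher and 0 lower between the hairpins. DESeq2 called 23 higher and 0 lower, against 81 higher and 45 lower over all genes. RPL37A of the large subunit was the edgeR call of lowest q between the hairpins (0.60 ± 0.10, q = 0.000206). It was at 1912, 1896, 1668, 2039 and 2309 CPM in sh#1 and 1244, 1171, 1378, 1214 and 1470 in sh#2, without overlap. The count of falls with sh#2 was 6 without shCtrl tumor 4 or sh#2 tumor 2, 7 without shCtrl tumor 1, shCtrl tumor 3 or sh#2 tumor 1, and 23 without shCtrl tumor 5. Without sh#1 tumor 1 it was 14. The count between the hairpins was 8 without sh#1 tumor 1 and 7 without sh#2 tumor 1 or 2.

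**Figure D4:**
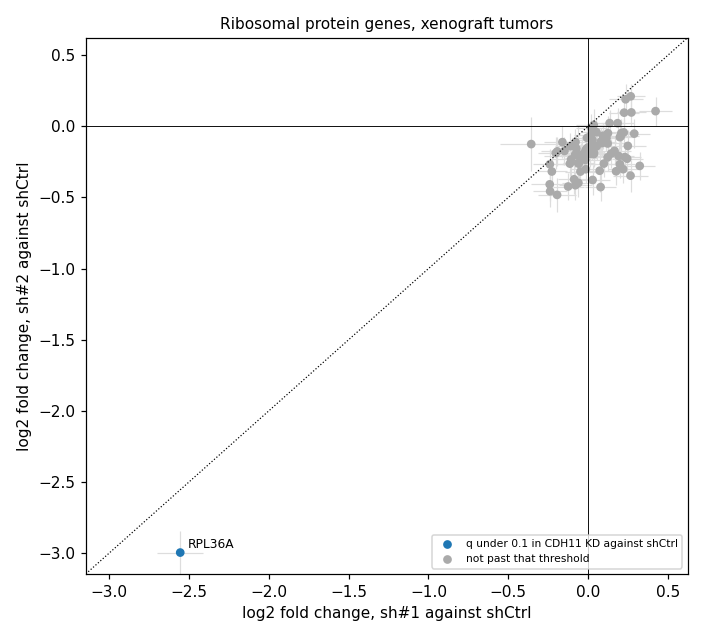
Log2 fold change of the 79 tested ribosomal protein genes in xenograft tumors, for sh#1 (horizontal) and sh#2 (vertical) against the same 5 shCtrl tumors, with standard errors, the dotted line marking equal values. The blue point, RPL36A, passed q under 0.1 in KD against shCtrl. The other genes lie within 0.5 of 0 on both axes, with sh#2 values mostly lower than sh#1 values.

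RPL36A, a protein of the large subunit near the exit site for tRNA, was called higher in culture and lower in tumors in KD against shCtrl. With sh#2 against shCtrl, all 12 genes called lower in tumors, RPL36A among them, were called higher in culture. So were 78 of the 81 RP genes tested there and 19.5% of all genes, so this is not particular to the 12. In tumors the level of RPL36A was 225, 206, 266, 254 and 231 CPM in shCtrl, 33.3, 48.6, 35.0, 37.0 and 43.4 in sh#1 and 25.6, 30.9, 25.9, 38.4 and 24.8 in sh#2. Every KD tumor was far below every shCtrl tumor, and the hairpins overlapped. The log2 fold change was −2.76 ± 0.13 (SE, q = 7.09e-18) in KD, to 14.8% of shCtrl, and the fitted level was 17.0% of shCtrl with sh#1 and 12.5% with sh#2. It was −2.76 without sh#1 tumor 1 and −2.71 when each tumor's mouse counts per human count were a covariate. In culture RPL36A rose, from 2333, 2448 and 2371 CPM in shCtrl to 2743, 2983 and 2890 in sh#1 and 3811, 3549 and 3575 in sh#2 (0.45 ± 0.11, q = 0.00871). Its KD call in culture was lost without shCtrl replicate 1 (q = 0.0554) or 3 (q = 0.0528).

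The near-copy RPL36AL on chromosome 14 encodes almost the same protein and was not part of the chosen set. It was at 525, 406, 448, 536 and 473 CPM in shCtrl tumors and 430 to 563 in the KD tumors (0.08 ± 0.09, q = 0.764). RPL36A had 42.8% to 59.3% of the counts of RPL36AL in shCtrl tumors, 5.91% to 8.88% in sh#1 and 4.68% to 7.19% in sh#2. The exact permutation p was 0.000666, the smallest that 5 against 10 tumors can give (adjusted 0.00666). RPL36A was chosen with earlier results known and already separated in these same tumors, so this p gives its fall no separate support. The test also pooled the tumors of both KD lines. In culture the ratio was 895% to 916% in shCtrl, 916% to 1044% in sh#1 and 1043% to 1152% in sh#2 (exact p = 0.0476, adjusted 0.0952). In shCtrl, RPL36A made up 1.12% of the RP counts of the cultured cells and 0.149% of those of the tumors.

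RPL36A (ENSG00000241343) lies at chrX:101390824-101396155 on the plus strand, and the gene model RPL36A-HNRNPH2, which joins it with HNRNPH2, covers 5145 of its 5332 bases. The joined model had 2 counts over all cultured libraries, and it was not in the tumor table. Reads of RPL36A and of its copies cannot always be told apart. The listed copies of RPL36A had 6 to 17 counts per tumor in shCtrl, 5 to 17 in sh#1 and 4 to 16 in sh#2, and RPL36A itself 151 to 286, 12 to 43 and 13 to 36. With the copies summed with RPL36A the log2 fold change was −2.39 ± 0.12 (q = 2.13e-16). Mouse Rpl36a had 11 to 43 counts in shCtrl tumors, 14 to 21 in sh#1 and 15 to 34 in sh#2.

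**Figure D5:**
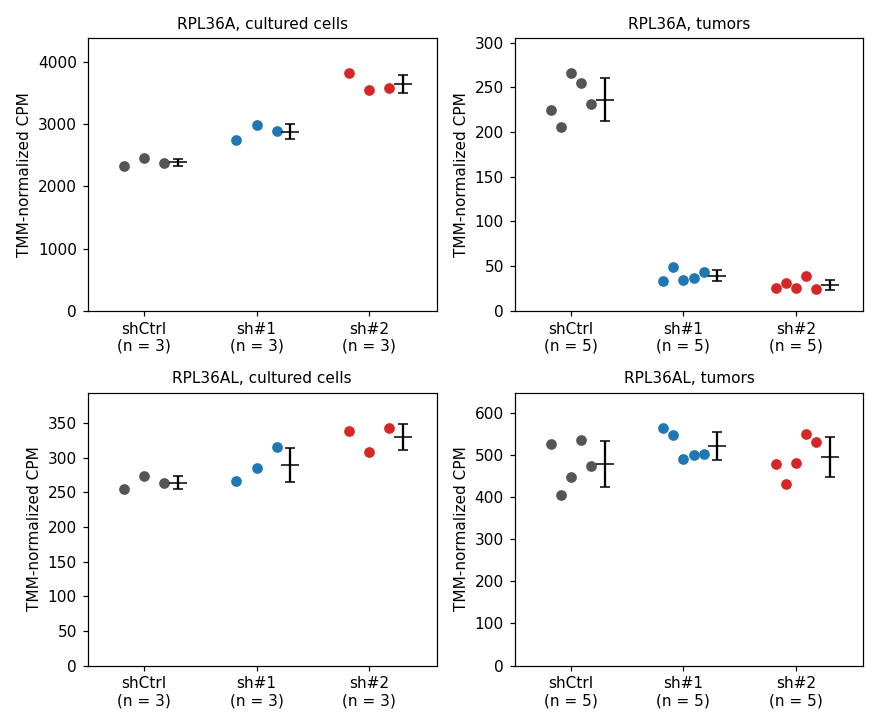
Normalized level of RPL36A (top) and RPL36AL (bottom), in TMM-normalized CPM, in cultured cells and tumors. Points are libraries, and bars give the mean and SD. In tumors RPL36A is at 206 to 266 CPM in shCtrl and 24.8 to 48.6 in all 10 KD tumors, while in culture it is highest in sh#2.

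The tumor table also listed 460 copies of RP genes, mostly processed pseudogenes, whose reads can come from the parent genes. The filter kept 56 of them, and 5 were higher and 10 lower in KD against shCtrl (26.8%), above the background of 0.697% and 0.817% given for all genes. Chosen after their values were seen, RPS15AP1 (−3.23 ± 0.33), RPL13AP20 (−1.99 ± 0.23) and RPL10P3 (1.80 ± 0.22) show the size of these values. The table of the cultured cells listed 5 copies, of which 3 were tested and 0 were called in KD. Over all tested genes of the tumors, 7 had log2 fold changes under −2 for both hairpins, and 2 of these, RPL36A among them, were protein coding. Set side by side, the part of the RP counts in shCtrl tumors and in shCtrl cells was 0.452% and 4.29% for RPL41, 0.131% and 2.24% for RPL30, and 0.0956% and 0.577% for RPL22, all chosen after their values were seen. The part of counting and mapping in these values was not tested.

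Among genes outside the set, other TOP mRNAs moved as the RP mRNAs did in culture. Of 17 tested, 15 rose in KD and in sh#1 and 17 in sh#2, with medians of 0.39, 0.29 and 0.49 (background 9.12%, 11.8% and 19.5%), and 14 were lower in sh#1 than in sh#2 (background 13.5%). They included the elongation factors EEF1A1 (0.50 ± 0.11, q = 0.0044) and EEF2 (0.55 ± 0.12, q = 0.00508) and the growth-related TPT1 (0.68 ± 0.13, q = 0.00255). FAU, which encodes a ribosomal protein fused to a ubiquitin-like protein, did not pass (0.17, q = 0.214). In tumors, EEF2 fell (−0.33 ± 0.09, q = 0.0564), the only one of 15 tested TOP mRNAs called in KD (background 0.697% higher and 0.817% lower).

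The genes that build ribosomes had different values with each hairpin. Of 73 tested assembly factors, 11 rose and 3 fell in cultured KD cells, with a median of −0.05, where 9.12% of all genes rose and 8.32% fell. With sh#1 18 rose and 1 fell (median 0.16, background 11.8% and 10.6%), and with sh#2 10 rose and 35 fell (median −0.30, background 19.5% and 18.8%). Levels in sh#1 exceeded those in sh#2 for 36 and were below them for 2 (background 11.2% and 13.5%). The KD background above applies to the KD counts of the next lists too. Of 14 RNA polymerase I genes, 3 rose and 2 fell in KD. Of 21 genes that regulate TOP mRNAs or phosphorylate RPS6, 1 rose and 3 fell, LARP1 at −0.66 ± 0.15 (q = 0.00757), AKT1S1 at −0.85 ± 0.18 (q = 0.00425) and HNRNPD at −0.26 ± 0.09 (q = 0.0423). The 1 that rose was EIF4EBP1, an inhibitor of cap-dependent translation (0.82 ± 0.19, q = 0.00829). LARP1 was higher in sh#1 than in sh#2 (0.55 ± 0.08, q = 1.33e-07) and EIF4EBP1 was lower (−0.66 ± 0.10, q = 6.9e-07). AKT1S1 and HNRNPD did not pass between the hairpins (q = 0.335 and 0.0553). Of 20 chaperones and modifiers of ribosomal proteins, 3 rose and 4 fell. In tumors edgeR called 0 of 70 assembly factors in KD, with 0 higher and 2 lower at an unadjusted p under 0.05 and 0 called by DESeq2. Of 13 genes that host small nucleolar RNAs, several of which are TOP mRNAs, 1 fell in KD tumors (background 0.817%). In these tumors 0 were higher and 3 lower at an unadjusted p under 0.05, and DESeq2 called 2 lower. Only TAF1D of these was tested in culture, where it rose (0.27), and it was also counted among the RNA polymerase I genes.

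Members with and without a TOP start are set side by side here, and the difference between them was not tested. In cultured KD cells, 39 of 47 members with a C and at least 4 pyrimidines at a start rose (median 0.41), and 13 of 19 tested members without one rose and 1 fell (median 0.42), where 9.12% of all tested genes rose and 8.32% fell. The largest rise, of RPL22L1, was in the former group and RPS27L, RPL7L1 and RPL26L1 were in the latter.

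RP transcripts are short, with a median canonical length of 869 nt over the 81 tested, 45 of them under 1000 nt, and they are abundant. Of 527 other genes with transcripts under 1000 nt, 13.3% rose and 3.61% fell in cultured KD cells (median 0.10), and of 3985 genes of 4000 nt or more 6.73% rose and 11.1% fell (median −0.07). Of 207 short genes that averaged 100 CPM or more, 15.9% rose, with a median of 0.14. In tumors the order was the reverse, with a median of −0.11 for 430 short genes and 0.06 for 3653 long ones. The part of transcript length in the RP values was not tested.

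Set side by side, 52 of 79 RP genes had a positive value in cultured KD cells and a negative value in KD tumors, and 25 were positive in both. RPL22L1, for example, had 0.90 in culture and −0.11 ± 0.14 (q = 0.809) in tumors, and RPL26 had 0.72 and −0.15 ± 0.10 (q = 0.554). In culture 79 of 81 tested RP genes had values above 0, and in tumors 54 of 79 had values below 0. The count of 52 mostly reflects these totals, and the Spearman correlation of the 79 pairs of values was 0.16. The difference between culture and tumors was not tested, since the tables were normalized separately.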

How the data were processed

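RNA-seq of 9 cultured UM-UC-3 libraries and 15 xenograft tumors was analysed. The authors deposited raw read counts per gene, without normalization. Per the paper's methods, reads of the cultured cells were trimmed in CLC Genomics Workbench and mapped to hg38 with RaNAseq, and those of the tumors were trimmed (Trim Galore in the submitters' processing notes) and mapped with HISAT2. The counting tool, strand setting and separation of mouse reads are not given in the sources used here. Without values in the table of the cultured cells, 13 genes were not analysed.

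Counts were tested with edgeR 4.0.16 (R 4.3.3, filterByExpr, TMM, robust quasi-likelihood test), both hairpins together (KD) or as 3 groups, with Benjamini-Hochberg adjustment (q values) over all genes tested and the study's thresholds of 0.05 in cells and 0.1 in tumors. CPM are TMM-normalized, and SE is the fold change over the root of F. The fits were tested on simulated data. Alternatives were DESeq2 1.42.0, TMM factors without RP genes, no filter, a replicate block, copies summed, the mouse ratio as covariate, leaving out each library and, chosen after seeing the data, 2 other scalings.

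The genes and lists were chosen with earlier results of these data known. Named genes were RPL36A, RPL36AL, RPLP0, paralog pairs, and the 8 largest rises and falls per system in KD among called genes averaging 20 counts or more, and a few items are not reported here. Every pair of replicates differed beyond sampling noise, so each library counted as 1.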

Additional observations from a re-analysis of the deposited data

Results flagged for a closer look

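RPL36A moved in opposite directions, with a log2 fold change of 0.45 in cultured cells and −2.76 in tumors, every KD library above the shCtrl mean in culture and every KD tumor below it in tumors. The difference between the systems was not tested.

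Among 60 groups of 5 tumors examined, 2 held a single tumor far from the others, and chance alone gives about 1 in 20. RPL7L1 was at 316 CPM in sh#1 tumor 3, against 221 to 240 in the other sh#1 tumors. RPLP0 was at 3430 CPM in sh#2 tumor 4, against 2548 to 2733 in the other sh#2 tumors.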

How the results depend on the processing

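Under the alternatives the counts of RP genes called stayed within 1.5 times those of the report, except for these. In cultured cells the 1 fall in KD became 0 without the filter on low counts and with the replicate block, the 1 fall with sh#1 became 0 under DESeq2, and library totals without TMM factors gave 4 higher and 27 lower in sh#1 against sh#2. In tumors DESeq2 gave 1 higher and 2 lower in KD, 3 higher with sh#1, 19 lower with sh#2 and 23 higher in sh#1 against sh#2. The 1 fall in KD tumors became 4 without the filter, 5 with library totals and 2 with upper quartile scaling. The cause was not tested.

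Leaving out 1 library at a time gave 31 to 72 rises and 0 to 1 falls in cultured KD cells, 52 to 66 rises and 0 to 1 falls with sh#1, and 78 rises with sh#2 each time. In tumors it gave 1 to 5 falls in KD, 0 to 2 rises and 1 to 3 falls with sh#1, 6 to 23 falls with sh#2 and 7 to 18 higher in sh#1 than in sh#2. None of the genes named by the rule that were called changed sign under any alternative run.

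The deviations of samples with the same replicate number had correlations of −0.0051 to 0.0551 in culture and −0.096 to 0.126 in tumors, not above 0.1 for every pair, so the samples were treated as unpaired. With the replicate block, 46 genes rose in KD in culture, 9 fell with sh#2 in tumors and 11 were higher in sh#1 than in sh#2. The depth of the tumors, 414849 to 1248977 counts, limits what can be said of genes with few counts.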
